A study of Arabidopsis thaliana with 11 samples.

Results

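The nuclear genes for light-harvesting antenna proteins, photosystem subunits and the small subunit of Rubisco were followed in Arabidopsis thaliana seedlings with and without the sulfated peptide PSY1 and its receptor kinase PSY1R. The set held 41 loci, taken by their AGI identifiers through the transcript named for each array probe: 4 LHCA genes, 14 LHCB genes, 11 PSA genes, 8 PSB genes and 4 RBCS genes. All 41 were measured, among 21924 loci tested, and 145 of the 36370 tested probes belonged to them.

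Whole seedlings of the ecotype Columbia-0 were grown for 1 week in shaken liquid culture under continuous light, and RNA from pooled seedlings was hybridised to one-colour Agilent arrays, 11 of which were analysed here. The groups were psy1r+PSY1 (receptor knockout, 10 nM PSY1 for 4 h, 2 arrays), psy1r (the same knockout line, untreated, 3 arrays), WT+PSY1 (wild type, 10 nM PSY1 for 4 h, 3 arrays) and WT (wild type, untreated, 3 arrays). A whole seedling mixes cotyledon, hypocotyl and root cells. The comparisons addressed what the peptide changed in each plant line, and what loss of the receptor changed with and without the peptide.

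LHCA proteins bind chlorophyll around photosystem I and LHCB proteins bind it around photosystem II, where LHCB1, LHCB2 and LHCB3 form the major trimeric antenna and LHCB4, LHCB5 and LHCB6 the minor antenna proteins CP29, CP26 and CP24. The PSA and PSB genes followed here encode nuclear subunits that join plastid-encoded cores, and RBCS encodes the small subunit of Rubisco, the enzyme that fixes carbon dioxide. Their transcripts are very abundant in green tissue, are controlled by light and respond to signals from the plastid.

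Levels are given as log2 processed signal minus the log2 of that array's 75th percentile, so that 0 is the 75th percentile of an array and a step of 1 is 2-fold. Each probe was compared only with itself. A gene is given by its tested probe of highest mean signal, and the order of genes by size of change is by these probes. The receptor gene PSY1R (AT1G72300) was read first, as a check of the labels. It stood at -7.55 and -4.76 in psy1r+PSY1, at -6.60, -6.54 and -8.58 in psy1r, at -1.51, -1.72 and -1.48 in WT+PSY1 and at -1.24, -1.22 and -1.89 in WT. Only 1 of the 2 psy1r+PSY1 arrays and 1 of the 3 psy1r arrays read it well above background, against all wild-type arrays. Every knockout array lay below every wild-type array, and the fitted log2 fold change, uncertain in size for that reason, was -5.79 in psy1r vs WT (SE 0.73, limma with Benjamini-Hochberg adjusted p = 0.0104) and -4.58 in psy1r+PSY1 vs WT+PSY1 (SE 0.82, adjusted p = 0.0344).

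Arrays of a group were unequally alike. The replicate number was also the slide and the scan. Over all tested probes the typical difference was 0.09 between WT replicates 1 and 2 and 0.10 between psy1r replicates 1 and 2. Among the WT+PSY1 replicates it was 0.08 to 0.11. The third arrays of WT, psy1r and psy1r+PSY1 stood 0.30 to 0.38 from the others of their groups. Over the 24 probes with repeat spots, the close pairs differed by 0.10 to 0.15 and the third arrays by 0.34 to 0.59. Repeat spots of these probes differed by 0.09 to 0.16 within an array, about as much as the close pairs. The methods describe biological replicates, but for arrays this close the p-values measure only the spread between these samples, which may be technical. Results are therefore also given with the third arrays of WT, psy1r and psy1r+PSY1 left out together, an alternative chosen after the data were seen. This leaves 1 psy1r+PSY1 array, so for 2-group comparisons with that group only medians are then given. For the interaction, genes that pass are also listed, but that group then has no spread of its own and no conclusion is drawn from them.

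None of the 41 genes passed the test in any comparison, which required an adjusted p below 0.05 (limma, Benjamini-Hochberg over all tested probes) and a change above 2-fold, and none passed with the fold limit dropped. The share of all loci called was itself small. It was 0.219% in WT+PSY1 vs WT (0.47% with no fold limit), 0.885% in psy1r vs WT (1.49%), 1.08% in psy1r+PSY1 vs WT+PSY1 (1.95%), 0.00912% in psy1r+PSY1 vs psy1r (0.0137%) and 0.0593% for the interaction, the response to PSY1 in psy1r minus that in WT. A count of 0 among 41 genes is near these shares and is no result about the genes. With 2 or 3 arrays in a group, all of these values have limited precision. At an unadjusted p below 0.05, 9 genes were higher and 0 lower in WT+PSY1 vs WT (11.6% and 10.7% of all loci), 2 higher and 1 lower in psy1r vs WT (7.77% and 9.72%), and 0 higher and 12 lower in psy1r+PSY1 vs WT+PSY1 (9.38% and 12.3%). In psy1r+PSY1 vs psy1r the counts were 0 and 1 (2.32% and 3.12%) and for the interaction 0 and 5 (5.82% and 6.52%). The unmoderated test of the methods with the same adjustment called 0 of the 41 in every comparison as well.

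The genes spanned less over the experiment than all loci did, a set that includes dimmer probes. From the lowest to the highest of the 11 arrays the typical gene spanned 0.72 log2 units, against 0.88 for all loci, and the span was below 1 in 82.9% of the genes, against 56.9% of all loci. RBCS had the narrowest spans, with a median of 0.39 and a range of 0.33 to 0.47. The median span was 0.715 for LHCA, 0.78 for LHCB, 0.61 for PSA and 0.765 for PSB. The widest was that of PSAD2, at 1.59. All 41 were well above background on all 11 arrays and none was saturated. A probe needed this on only 2 arrays to be tested. No comparison with loci of like brightness was made, so the narrower spans cannot be read as particular to these genes.

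Most of the genes shared a pattern over the arrays. Their median level relative to each gene's own mean was 0.04 and -0.34 in psy1r+PSY1 (replicates 1 and 3), 0.00, -0.08 and -0.05 in psy1r, 0.25, 0.16 and 0.15 in WT+PSY1 and 0.11, 0.04 and -0.25 in WT. The WT+PSY1 arrays were the highest, and psy1r+PSY1 replicate 3 and WT replicate 3 were the lowest. WT+PSY1 had the highest group mean in 29 of the 41 genes (70.7%), against 30.6% of all loci. In bulk samples fewer green cells and less RNA per green cell cannot be told apart.

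**Figure D1:**
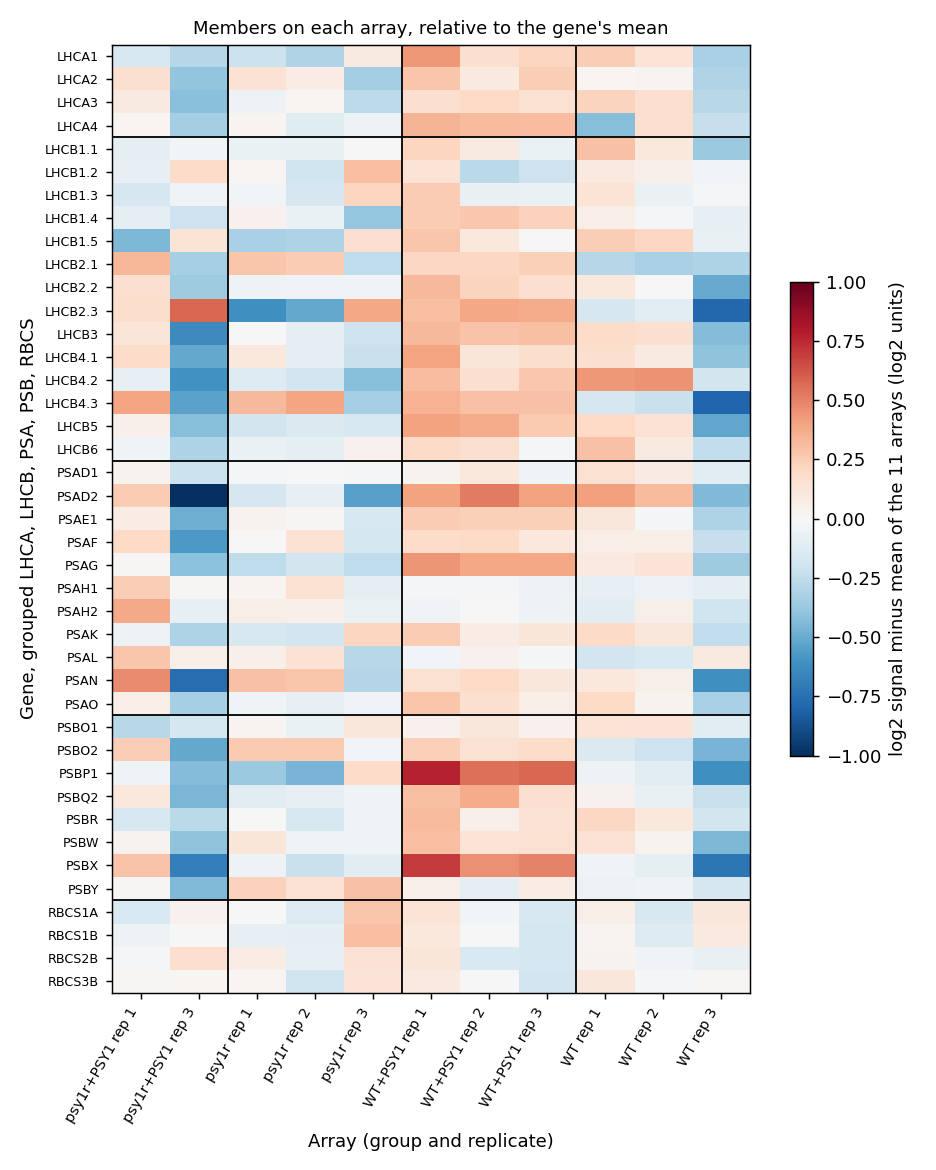
Level of the 41 genes (rows, by class) on the 11 arrays (columns, by group and replicate) as log2 signal minus the gene's mean over the arrays, with red above and blue below that mean and the colour scale ending at 1 log2 unit. WT+PSY1 columns are mostly red, psy1r+PSY1 replicate 3 and WT replicate 3 are mostly blue, and the RBCS rows are pale.

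Levels of other tissues moved with some of these arrays. Of 13 seed and embryo genes (storage proteins, oleosins and late embryogenesis proteins) 12 were tested, and their summed signal, in multiples of the array's 75th percentile, was 28.5 in psy1r+PSY1 replicate 3 and 0.322 to 1.46 on the other 10 arrays. All 12 were well above background on that array and 4 to 11 on the others. The sum over 10 root genes was 2.13 in psy1r replicate 3 and 3.13 to 4.46 elsewhere, with 8 to 10 of them above background. EM6, a late embryogenesis gene, was called higher in psy1r+PSY1 vs WT+PSY1 (limma adjusted p = 0.047). It stood at -4.24 and 0.53 in psy1r+PSY1 (replicates 1 and 3) and was not well above background on the 3 WT+PSY1 arrays. WT+PSY1 was set no lower than the dimmest probe well above background on each array. The mean log2 signal of psy1r+PSY1 was then at least 39.1-fold higher, a bound that replicate 1 alone does not reach. Without added peptide EM6 was also higher in the knockout, though not called. It stood at -2.24, -2.04 and -2.48 in psy1r and at -6.35, -6.16 and -5.60 in WT. The part of these tissues in the photosynthesis values was not tested.

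In WT+PSY1 vs WT the antenna and photosystem genes were mostly higher with the peptide, by less than 2-fold and without passing the test, while the RBCS genes lay near 0 by the probes used. Of the 41 genes 34 had a change above 0 (47.3% of all loci did), and the median log2 fold change was 0.19, against -0.03 over all loci. The median was 0.09 with the RMA steps, 0.12 with quantile normalization, 0.11 with array weights and 0.25 with all probes of a gene averaged, when 41 of 41 genes were above 0. The lowest WT+PSY1 array exceeded the highest WT array in 17 genes, or 41.5%, where 22.9% of all loci did so, and the reverse order was seen in none, where 24.4% of all loci had it. The medians by class were 0.27 for LHCA, 0.27 for LHCB, 0.19 for PSA, 0.33 for PSB and -0.03 for RBCS.

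Among the photosystem I antenna genes, LHCA4 (AT3G47470) had the largest change in this comparison. It measured 6.61, 6.59 and 6.58 in WT+PSY1 and 5.85, 6.44 and 6.04 in WT. The treated arrays lay together above all untreated ones, with a log2 fold change of 0.48 (SE 0.16, adjusted p = 0.146). LHCA1 (AT3G54890) measured 7.58, 7.30 and 7.36 in WT+PSY1 and 7.39, 7.28 and 6.82 in WT, where the groups overlapped and only WT replicate 3 was clearly lower. LHCA2 (AT3G61470) measured 5.26, 5.08 and 5.23 in WT+PSY1 and 5.0, 5.01 and 4.68 in WT, with no overlap and a change of 0.29 (adjusted p = 0.398). LHCA3 overlapped, at 0.13.

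The photosystem II antenna genes divided by family member. LHCB2.3 (AT3G27690), a gene of the major antenna, had the largest LHCB change. It measured 2.54, 2.62 and 2.61 in WT+PSY1 and 2.07, 2.12 and 1.45 in WT, without overlap, and the log2 fold change was 0.71 (SE 0.28, adjusted p = 0.199). LHCB4.3 (AT2G40100), a CP29 gene, measured 1.80, 1.75 and 1.75 in WT+PSY1 and 1.29, 1.23 and 0.66 in WT. These groups did not overlap either, at 0.70 (SE 0.29, adjusted p = 0.213). LHCB2.1 (AT2G05100) measured -0.78, -0.78 and -0.75 in WT+PSY1 and -1.27, -1.31 and -1.29 in WT without overlap, a change of 0.52 (SE 0.19, adjusted p = 0.179). Its other probe gave 0.47.

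In LHCB1.1, LHCB1.2 and LHCB1.3 the probes used changed little. LHCB1.1, LHCB1.2 and LHCB1.3 are near-identical neighbours whose probes may share transcripts, so their separate values are uncertain. LHCB1.1 (AT1G29920) measured 7.54, 7.42 and 7.26 in WT+PSY1 and 7.62, 7.43 and 6.96 in WT. LHCB1.2 (AT1G29910) measured 7.86, 7.45 and 7.51 in WT+PSY1 and 7.82, 7.77 and 7.69 in WT, and LHCB1.3 (AT1G29930) measured 8.30, 7.97 and 7.98 in WT+PSY1 and 8.18, 7.98 and 8.03 in WT. The groups overlapped in all 3, at 0.07, -0.15 and 0.02 in that order of genes. Probes disagreed in this family: the 9 probes of LHCB1.3 gave 0.00 to 0.50, the 4 of LHCB1.4 gave 0.26 to 0.71 and the 4 of LHCB1.5 gave -0.01 to 0.62. Of the other LHCB genes, LHCB1.4 and LHCB2.2 of the major antenna, LHCB3 and the CP26 gene LHCB5 had no overlap, with changes of 0.26, 0.38, 0.33 and 0.40 in that order. LHCB1.5, LHCB4.1, LHCB4.2 and the CP24 gene LHCB6 overlapped, with changes of 0.00, 0.28, 0.01 and 0.07. By the probes used, 12 of the 14 had a change above 0 and 7 had no overlap.

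Among photosystem I subunits PSAG (AT1G55670), which helps to bind the LHCA antenna, had the largest change. It measured 6.71, 6.66 and 6.66 in WT+PSY1 and 6.37, 6.40 and 5.92 in WT, so that all treated arrays were higher, by 0.45 (SE 0.16, adjusted p = 0.162), and its 4 probes gave 0.20 to 0.45. PSAO (AT1G08380), a subunit of the docking side for mobile antenna, measured 6.96, 6.84 and 6.75 in WT+PSY1 and 6.88, 6.72 and 6.36 in WT. PSAH2 (AT1G52230), of the same side, measured 1.77, 1.81 and 1.75 in WT+PSY1 and 1.69, 1.86 and 1.60 in WT. Both overlapped between groups. PSAE1, PSAF and PSAN also had no overlap, at 0.31, 0.19 and 0.31 in that order, while PSAD1, PSAD2, PSAH1, PSAK and PSAL overlapped, at -0.01 to 0.34. In the class, 10 of 11 had a change above 0 and 4 had no overlap.

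Among photosystem II subunits PSBP1 (AT1G06680), an extrinsic protein of the oxygen-evolving complex, had the largest change of all 41 genes by the probes used. It measured 7.13, 6.91 and 6.94 in WT+PSY1 and 6.31, 6.26 and 5.75 in WT, clear of each other on every array. The log2 fold change was 0.88 (SE 0.22, adjusted p = 0.0893), the lowest adjusted p of the set here. Its other 4 probes gave 0.15 to 0.35, so the size depended on the probe, and the average of its probes was 0.38, against 0.83 for PSBX and 0.59 for PSBY. PSBX (AT2G06520), a small membrane subunit with 1 probe, singled out after its values were seen, measured 6.99, 6.75 and 6.79 in WT+PSY1 and 6.25, 6.20 and 5.57 in WT, at 0.83 (SE 0.26, adjusted p = 0.132).

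PSBO1 and PSBO2, which stabilise the manganese cluster, differed in their values. PSBO2 (AT3G50820) measured 5.03, 4.95 and 4.98 in WT+PSY1 and 4.65, 4.59 and 4.33 in WT, without overlap, at 0.46 (SE 0.19, adjusted p = 0.215). PSBO1 (AT5G66570) measured 7.78, 7.85 and 7.78 in WT+PSY1 and 7.87, 7.86 and 7.63 in WT, with overlap, at 0.02. The size of the gap depended on the probe: the 3 probes of PSBO1 gave 0.02 to 0.32 and the 2 of PSBO2 gave 0.40 to 0.46. The difference between the genes was not tested. PSBY (AT1G67740), another small subunit, disagreed between probes: the one used gave 0.09 and the other 2 gave 0.80 and 0.89. PSBQ2, a further extrinsic protein, had no overlap, at 0.37, and the small subunits PSBR and PSBW overlapped, at 0.13 and 0.29.

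The RBCS genes lay near 0 in this comparison by the probes used. RBCS1A (AT1G67090) measured 8.06, 7.89 and 7.76 in WT+PSY1 and 7.99, 7.76 and 8.03 in WT. RBCS3B (AT5G38410), with the largest change of its class, measured 7.93, 7.83 and 7.64 in WT+PSY1 and 7.94, 7.81 and 7.84 in WT, at -0.06 (SE 0.12, adjusted p = 0.809). RBCS1B (AT5G38430) measured 8.11, 8.0 and 7.83 in WT+PSY1 and 8.03, 7.87 and 8.10 in WT. All 4 overlapped between groups and had changes between -0.06 and -0.02. With all probes of a gene averaged all 4 were above 0, at 0.05 for RBCS1A, 0.17 for RBCS1B, 0.14 for RBCS2B and 0.11 for RBCS3B. RBCS1B, RBCS2B and RBCS3B lie side by side and are near-identical copies, so their separate values are uncertain.

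**Figure D2:**
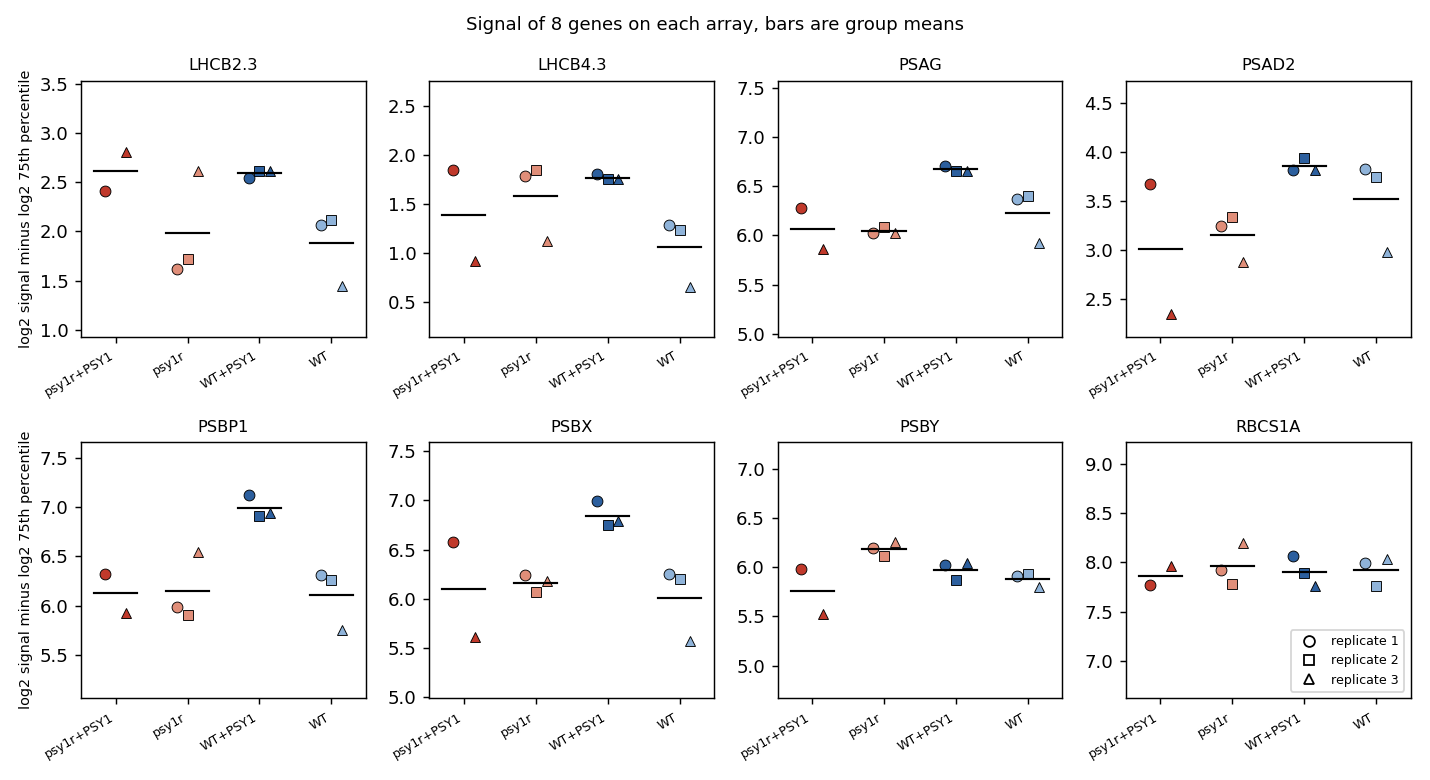
Level of 8 genes on each array, as log2 signal minus the log2 75th percentile of the array (y axis, the same height in each panel), by group (x axis), with marker shape for the replicate and a line at the group mean. PSBP1, PSBX and PSAG are highest in the 3 WT+PSY1 arrays, WT replicate 3 is the lowest WT array in all but RBCS1A, and RBCS1A is level.

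The third WT array carried much of the size of this comparison. WT replicate 3 was below the mean of the other WT arrays in 37 of 41 genes, with a median difference of -0.34, and by class this difference was -0.40 for LHCA, -0.54 for LHCB, -0.36 for PSA, -0.32 for PSB and 0.05 for RBCS. Within slides the median of WT+PSY1 minus WT was 0.12 on slide 1, 0.12 on slide 2 and 0.39 on slide 3, with 33, 30 and 34 of 41 genes higher in that order of slides. Over all loci 46.3%, 46.7% and 50.5% were higher on these slides. On every slide 22 genes were higher and none was lower on all 3. This agreement was not counted over all loci, and WT replicates 1 and 2 lay close together. Without WT replicate 3 the median was 0.08. With the third arrays of WT, psy1r and psy1r+PSY1 left out it was also 0.08, and with no fold limit 10 genes were then higher and 1 lower, or 24.4% and 2.44% of the 41, where 18.6% and 20.9% of all loci were.

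In psy1r vs WT, without added peptide, the genes lay around 0. Changes above 0 were seen in 21 genes (46.5% of all loci) and below in 20, and the median was 0.00, against -0.03 over all loci. By the probes used all changes lay between -0.49 and 0.52. Averaged over probes LHCB1.4 was at -0.84 and PSBO2 at 0.62. The lowest psy1r array exceeded the highest WT array in 3 genes, LHCB2.1, PSBO2 and PSBY, or 7.32%, where 10.5% of all loci did so, and below in none, where 12.1% did. The count is near or below these shares.

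By the probes used, the largest antenna changes in this comparison went both ways, within the CP29 genes. LHCB4.3 measured 1.78, 1.85 and 1.12 in psy1r and 1.29, 1.23 and 0.66 in WT, at 0.52 (SE 0.29, adjusted p = 0.407). LHCB4.2 (AT3G08940) measured 4.49, 4.43 and 4.2 in psy1r and 5.06, 5.07 and 4.44 in WT, at -0.49 (SE 0.20, adjusted p = 0.278). Both overlapped through the third arrays, and on all 3 slides LHCB4.3 was higher and LHCB4.2 lower in psy1r. LHCB1.4 differed by probe: the one used gave -0.13, and its 4 probes, all below 0, gave -1.36 to -0.13 with an average of -0.84 and adjusted p of 0.353 or more. LHCA1 measured 6.93, 6.84 and 7.23 in psy1r and 7.39, 7.28 and 6.82 in WT, with opposite order on slide 3, at -0.16 (SE 0.17, adjusted p = 0.702).

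Among subunits, PSAD2 (AT1G03130), on the side of photosystem I where ferredoxin docks, measured 3.25, 3.34 and 2.88 in psy1r and 3.83, 3.74 and 2.98 in WT, at -0.36 (SE 0.34, adjusted p = 0.645). PSBO2 measured 5.06, 5.06 and 4.77 in psy1r and 4.65, 4.59 and 4.33 in WT, at 0.44 (SE 0.19, adjusted p = 0.297), and its other probe gave 0.80. Its 3 knockout arrays were each the higher on their slide. RBCS2B (AT5G38420) measured 7.76, 7.60 and 7.83 in psy1r and 7.72, 7.65 and 7.61 in WT, a change of 0.07 (SE 0.12, adjusted p = 0.818), which turned to -0.01 with arrays weighted.

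The sign of this comparison changed between slides. The median of psy1r minus WT was -0.11 on slide 1, -0.12 on slide 2 and 0.22 on slide 3, with 11, 12 and 36 of 41 genes higher in that order of slides. Over all loci 45.9%, 44.5% and 52.5% were higher on these slides. Only 8 genes kept 1 sign on all slides, which was not counted over all loci. With the third arrays left out the median was -0.12, and with no fold limit 5 genes were higher and 11 lower, or 12.2% and 26.8%, where 20% and 25.4% of all loci were.

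In psy1r+PSY1 vs WT+PSY1 the antenna and photosystem genes were mostly lower in the knockout, again without passing the test. Changes above 0 were seen in 8 genes (49.6% of all loci) and below 0 in 33, with a median of -0.32, against 0.00 over all loci. Both psy1r+PSY1 arrays lay below all WT+PSY1 arrays in 19 genes, or 46.3%, where 26.1% of all loci did so, and above in 2 genes, PSAH1 and PSAL, where 23.5% did. By class and the probes used, the median was -0.41 for LHCA, -0.31 for LHCB, -0.30 for PSA, -0.39 for PSB and 0.02 for RBCS. With all probes of a gene averaged, all 4 RBCS genes were below 0, with RBCS1A at -0.07, RBCS1B at -0.17 and RBCS3B at -0.03. This comparison shares its WT+PSY1 arrays with the comparison of WT+PSY1 with WT.

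LHCA1 measured 6.98 and 6.86 in psy1r+PSY1 and 7.58, 7.30 and 7.36 in WT+PSY1, without overlap, at -0.49 (SE 0.19, adjusted p = 0.20). LHCB4.2 measured 4.54 and 4.02 in psy1r+PSY1 and 4.93, 4.78 and 4.89 in WT+PSY1, also without overlap, at -0.59 (SE 0.23, adjusted p = 0.194). PSAG measured 6.28 and 5.86 in psy1r+PSY1 and 6.71, 6.66 and 6.66 in WT+PSY1, at -0.61 (SE 0.18, adjusted p = 0.109). In all 3 both knockout arrays were low, replicate 3 more so. LHCB3, LHCB5 and LHCB1.4 had changes of -0.56, -0.53 and -0.41 without overlap. The 4 probes of LHCB1.4 gave -1.34 to -0.41, with adjusted p of 0.152 or more. LHCA4, PSAE1 and PSBQ2 had changes of -0.48, -0.45 and -0.46, also without overlap.

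By the probes used, PSBP1 had the largest change of the set here as well. It measured 6.32 and 5.93 in psy1r+PSY1 and 7.13, 6.91 and 6.94 in WT+PSY1, at -0.86 (SE 0.24, adjusted p = 0.104), while its other 4 probes gave -0.27 to -0.09. Averaged over probes it was at -0.33, against -1.02 for LHCB1.4, -0.83 for PSBY and -0.75 for PSBX. The groups stood apart by more than the spread within either. PSAD2 measured 3.67 and 2.35 in psy1r+PSY1 and 3.82, 3.94 and 3.82 in WT+PSY1, at -0.85 (SE 0.38, adjusted p = 0.249), a difference that lay almost wholly in psy1r+PSY1 replicate 3. RBCS2B measured 7.67 and 7.85 in psy1r+PSY1 and 7.81, 7.53 and 7.51 in WT+PSY1, with overlap, at 0.15 (SE 0.13, adjusted p = 0.571), and -0.18 with all its probes averaged. PSBY again differed by probe, at -0.21 for the one used and at -1.08 (adjusted p = 0.0683) and -1.21 for the other 2.

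Replicate 3 of psy1r+PSY1, the array with the high seed transcripts, was the lower of its group in most of these genes, and the part of the seed transcripts in this was not tested. Replicate 3 minus replicate 1 had a median of -0.40 over the 41 genes, with all 4 LHCA and all 11 PSA genes lower and all 4 RBCS genes higher. Within slides the median of psy1r+PSY1 minus WT+PSY1 was -0.20 on slide 1 and -0.50 on slide 3. On both slides 23 genes were lower, which was not counted over all loci. Without psy1r+PSY1 replicate 3 the median was -0.15, and without replicate 1 it was -0.55. With the third arrays left out it was -0.15. Each of these fits keeps 1 psy1r+PSY1 array, assumed to vary like the other groups. Only medians are given for them in this comparison.

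**Figure D3:**
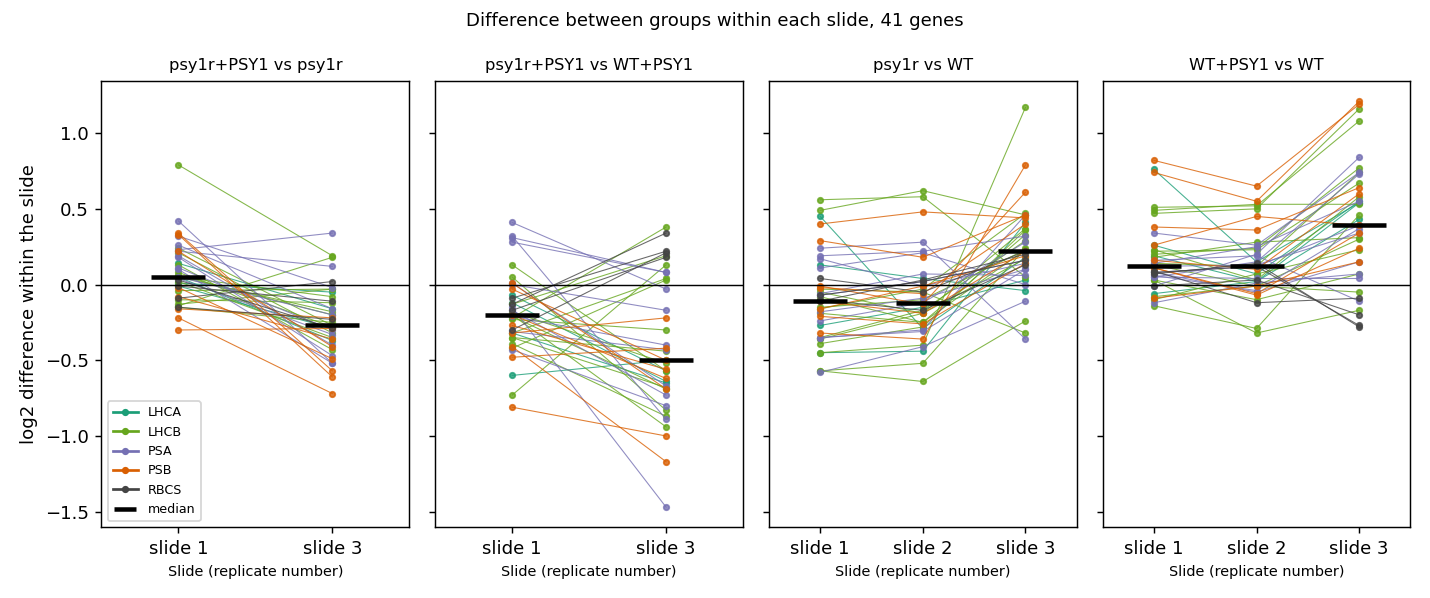
Difference in log2 signal between groups within each slide (y axis) for the 41 genes, coloured by class, by slide (x axis) in each of 4 comparisons, with a black bar at the median. The median of psy1r minus WT is below 0 on slides 1 and 2 and above 0 on slide 3, and that of WT+PSY1 minus WT is above 0 on each slide.

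In psy1r+PSY1 vs psy1r, the response to the peptide without its receptor, the changes were small. The median was -0.08, against 0.01 over all loci, and by class it was -0.08 for LHCA, -0.07 for LHCB, -0.08 for PSA, -0.17 for PSB and -0.02 for RBCS. There were 8 genes above 0 (52.5% of all loci) and 33 below, a split that became 20 above and 21 below with quantile normalization and 24 above and 17 below with the RMA steps. Both psy1r+PSY1 arrays lay below all psy1r arrays in 3 genes, PSBO1, PSBR and PSBY, or 7.32%, where 7.28% of all loci did so, and above in none, where 7.6% did. This share is that of all loci.

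PSBY had the lowest adjusted p of the 41 genes here. It measured 5.98 and 5.53 in psy1r+PSY1 and 6.20, 6.11 and 6.26 in psy1r, at -0.43 (SE 0.14, adjusted p = 0.676). LHCB2.3 measured 2.41 and 2.81 in psy1r+PSY1 and 1.62, 1.72 and 2.62 in psy1r, with overlap through psy1r replicate 3, at 0.62 (SE 0.32, adjusted p = 0.992). PSAN (AT5G64040), a lumenal subunit on the plastocyanin side, measured 5.11 and 3.87 in psy1r+PSY1 and 4.93, 4.91 and 4.34 in psy1r, at -0.24 (SE 0.36, adjusted p = 1). The change of PSAN was 0.38 without psy1r+PSY1 replicate 3.

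The smallest of these class-leading changes were LHCA4 and RBCS1A. LHCA4 measured 6.29 and 5.93 in psy1r+PSY1 and 6.30, 6.15 and 6.22 in psy1r, at -0.11 (SE 0.18), and RBCS1A measured 7.77 and 7.96 in psy1r+PSY1 and 7.92, 7.78 and 8.20 in psy1r, at -0.10 (SE 0.16), both with an adjusted p of 1. Within slides the median over the 41 genes was 0.05 on slide 1 and -0.27 on slide 3. In the fit this median was 0.12 without psy1r+PSY1 replicate 3 and 0.08 with the third arrays left out, each with 1 psy1r+PSY1 array left.

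The interaction tested whether the response to PSY1 differed between the lines. Values were above 0 in 6 genes (52% of all loci) and below 0 in 35, with a median of -0.28, against 0.02 over all loci, and the lowest adjusted p was 0.373, for PSBP1 at -0.90 (SE 0.33). PSBX and LHCB4.3 were also at -0.90, with adjusted p of 0.437 and 0.478. Each fit below with arrays left out keeps 1 psy1r+PSY1 array, so that group has no spread of its own. Without psy1r+PSY1 replicate 1, the array kept is replicate 3, the one with the high seed transcripts. Genes that pass in these fits are therefore not read as results. With the third arrays left out the median was 0.01, and with no fold limit 0 genes were higher, where 8.66% of all loci were, and LHCB2.1, LHCB4.3 and PSBO2 were lower, or 7.32%, where 7.84% of all loci were. Without psy1r+PSY1 replicate 1, PSBO2 passed the test with the fold limit as lower, where 1.15% of all loci did.

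**Figure D4:**
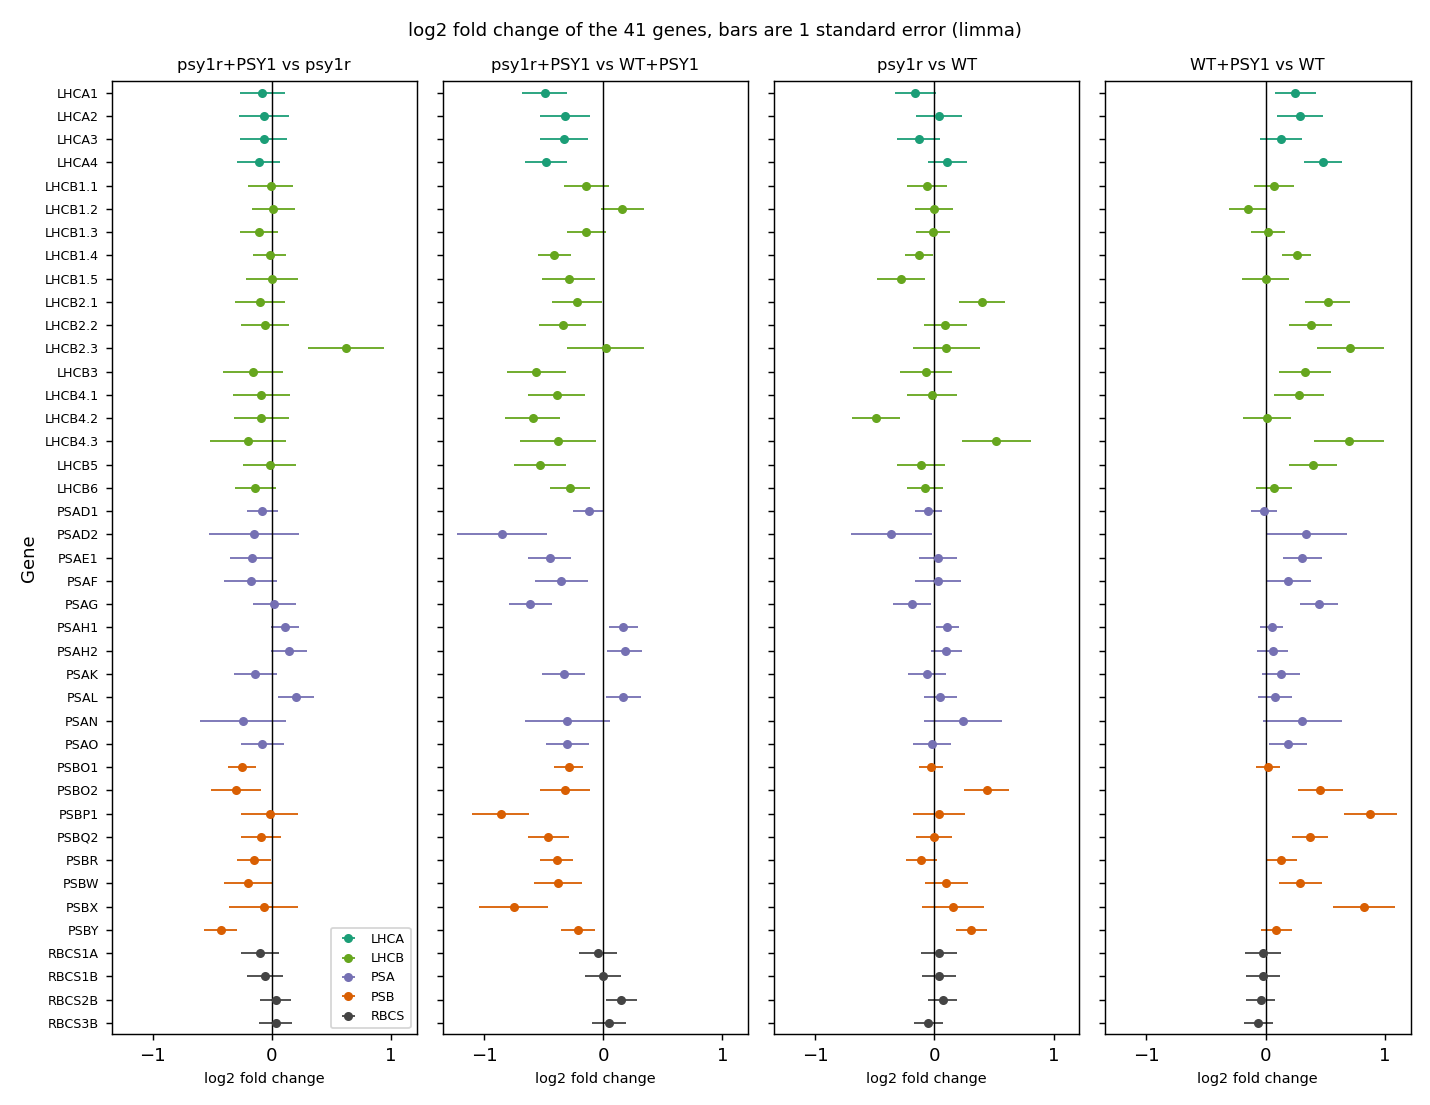
Log2 fold change (x axis) of each of the 41 genes (rows, coloured by class) in 4 comparisons, with bars of 1 standard error from the limma fit. Most antenna and photosystem genes lie left of 0 in psy1r+PSY1 vs WT+PSY1 and right of 0 in WT+PSY1 vs WT. By the probes used, the RBCS genes lie near 0 in all 4.

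Other photosynthesis genes were read in lists chosen by pathway. The 12 Calvin cycle genes had a median of 0.48 in WT+PSY1 vs WT, with 12 of 12 above 0, and of -0.46 in psy1r+PSY1 vs WT+PSY1, with 12 of 12 below, and none was called. In the same 2 comparisons the medians were 0.45 and -0.48 for 8 leaf photorespiration genes, 0.31 and -0.22 for 10 electron transport and ATP synthase genes, 0.23 and -0.11 for 16 chlorophyll synthesis genes and 0.28 and -0.25 for 5 genes of antenna import and insertion. The 11 regulators had medians of -0.07 and -0.45, and 11 other photosystem and antenna genes of 0.36 and -0.52. The largest changes in WT+PSY1 vs WT were those of the carbonic anhydrase gene CA1 (1.19, adjusted p = 0.176) and of PIF1, a light-signalling factor (-0.81, adjusted p = 0.236). In psy1r+PSY1 vs WT+PSY1 they were ABI4, a transcription factor (1.3, adjusted p = 0.346), and LHCA6, a minor antenna gene (-1.05, adjusted p = 0.147). In psy1r+PSY1 vs psy1r they were PORA, a protochlorophyllide reductase (0.43, adjusted p = 1), and CGA1, a GATA factor (-0.83, adjusted p = 0.939), and in psy1r vs WT the lowest was PIF1 (-0.76, adjusted p = 0.336). ABI4 was dim, well above background on 8 of 11 arrays. It measured -4.73 and -7.16 in psy1r+PSY1 (replicates 1 and 3) and -6.55, -7.89 and -7.28 in WT+PSY1, so only replicate 1 stood apart.

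Of these lists, the test called ELIP2 and no other gene, in 2 comparisons. It encodes an early light-induced protein, a relative of the antenna proteins that accumulates under light stress. ELIP2 measured 1.69 and 1.51 in psy1r+PSY1, 2.02, 2.29 and 1.58 in psy1r, 0.36, 0.54 and 0.35 in WT+PSY1 and 0.34, 0.35 and 0.11 in WT. Every knockout array lay above every wild-type array. The gene rose by 1.70 in psy1r vs WT (SE 0.18, adjusted p = 0.00503) and by 1.19 in psy1r+PSY1 vs WT+PSY1 (SE 0.20, adjusted p = 0.0295). Its relative ELIP1 was at 0.93 and 0.85 in these comparisons, with adjusted p of 0.0974 and 0.122. Among 3 tested senescence genes the test called SEN1, a gene known to be induced in darkness and senescence. SEN1 fell by 1.36 in psy1r vs WT (SE 0.25, adjusted p = 0.0411) and by 1.69 in psy1r+PSY1 vs WT+PSY1 (SE 0.28, adjusted p = 0.029). It measured 2.89 and 2.26 in psy1r+PSY1, 2.37, 2.37 and 2.85 in psy1r, 4.24, 4.29 and 4.26 in WT+PSY1 and 4.2, 4.1 and 3.39 in WT. The other senescence genes were not called. SAG13 had fitted changes of 2.01 (adjusted p = 0.317) and 3.25 (adjusted p = 0.128) in the same comparisons, with 8 of 11 arrays well above background, and NYE1 of -0.11 and 0.35 (adjusted p = 0.787 and 0.308).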

How the data were processed

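The authors extracted the one-colour arrays with Agilent Feature Extraction 10.7.3.1, and the deposited processed signal is a background-subtracted spot intensity, not normalized between arrays. The authors' deposited table of log2 values, centred per probe, was used as an alternative; its columns correlated at 0.9989 to 0.9995 with the scaling used here and at 0.9127 to 0.9763 with the RMA steps, the method named for the study. Median spot signals were 239 to 380.5 over a local background of 44 to 47, and 72.5% to 81.8% of probes were well above background.

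Control and outlier-flagged spots were left out and repeat spots averaged. Log2 signals were set to each array's 75th percentile, because quantile steps fix the top of the signal range, where most of these genes lie. Probes that were well above background on 2 or more of the 11 arrays were fitted with limma 3.58.1 in R 4.3.3 with 4 groups, and p-values were adjusted by Benjamini-Hochberg. A locus is given by its tested probe of highest mean. Probe names were matched to loci through RefSeq transcripts. The fit was tested on simulated data with independent arrays and the same spread on every array. That cannot show how it behaves with arrays as unequally alike as these.

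Named in each class were the locus of largest change in each 2-group comparison, those of highest and lowest mean signal and the near-identical copies; in other lists, called genes and extreme changes. Members and lists were chosen with earlier results of these data known. Sequences and coordinates were not used here.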

Additional observations from a re-analysis of the deposited data

How the results depend on the processing

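With 1 array left out in turn, the median log2 fold change lay between 0.08 and 0.29 in WT+PSY1 vs WT, -0.09 and 0.07 in psy1r vs WT, -0.55 and -0.15 in psy1r+PSY1 vs WT+PSY1, -0.26 and 0.12 in psy1r+PSY1 vs psy1r and -0.46 and -0.18 for the interaction. With the 2-fold limit no gene was called in any of these fits that kept more than 1 array in each group. With no fold limit, PSAG was lower in psy1r+PSY1 vs WT+PSY1 without WT replicate 3 (5.95% of all probes passed in either direction). Without psy1r replicate 3, PSBP1 was higher in WT+PSY1 vs WT (4.98% of all probes). LHCB1.4 and PSBP1 were then lower in psy1r+PSY1 vs WT+PSY1 (8.33%). With the RMA steps the median was -0.12 in psy1r+PSY1 vs WT+PSY1 and -0.11 for the interaction. With the third arrays of WT, psy1r and psy1r+PSY1 left out it was -0.15 in psy1r+PSY1 vs WT+PSY1, 0.08 in psy1r+PSY1 vs psy1r and 0.01 for the interaction. The cause of these shifts was not tested.

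Signs of small changes turned under several settings. With the RMA steps 24 of the 41 genes turned in psy1r+PSY1 vs psy1r, giving 24 above 0 and 17 below against 8 and 33. In WT+PSY1 vs WT 11 turned with the RMA steps and 7 with probes averaged. In that comparison 9 turned with quantile normalization, 9 with array weights and 9 without WT replicate 3. Of the genes chosen for naming, 5 turned. RBCS3B in WT+PSY1 vs WT was 0.06 with the RMA steps, 0.11 with its probes averaged and -0.13 to 0.02 with 1 array left out. RBCS2B was -0.01 in psy1r vs WT with array weights, and in psy1r+PSY1 vs WT+PSY1 it was -0.09 with the RMA steps, -0.08 with normexp and -0.18 with its probes averaged. In psy1r+PSY1 vs psy1r, LHCA4 was 0.17 with the RMA steps, 0.06 with normexp and -0.29 to 0.07 with 1 array left out, PSAN was -0.86 to 0.38 with 1 array left out, and RBCS1A was 0.06 with the RMA steps, 0.01 with normexp, 0.02 with array weights and -0.20 to 0.02 with 1 array left out.

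With array weights and no fold limit, 14 genes were higher in WT+PSY1 vs WT (20.6% of all loci), and 6 were higher and 12 lower in psy1r vs WT (21.6% and 27.4% of all loci); none passed 2-fold. With only the groups compared in the fit, LHCB2.1 and PSBP1 were higher without the fold limit, where 5.68% of all loci were. Samples of the same replicate number shared a slide, and their deviations correlated at -0.15 to 0.37 over all probes and at -0.43 to 0.73 over the 41 genes, so the number was not taken as a pairing. With the replicate block the medians were 0.19, 0.00, -0.30, -0.07 and -0.30 in the order above, and no gene was called. All 41 genes were well above background on the 11 arrays, and 32 were read at the low scanner gain on all of them.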
